A study of Mus musculus with 20 samples.

Results

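Pisd-ps3, a transcribed pseudogene, and Pisd, the protein-coding gene from which its name derives, were followed on liver arrays of adult male mice. They are 2 genes of the 19505 gene symbols on the array, with 1 row each among 22206 transcript clusters, the array's unit of expression. Pisd-ps3 was taken up because its level differed between the maternal temperature groups in these data, and Pisd as its parent. The members were thus selected on measured values, namely the log2 levels by group and the slopes on temperature, which are therefore given as a description without a test. Pisd carries the row identifier TC0500003725.mm.2 and Pisd-ps3 the identifier TCUn_JH58430400000005.mm.2, the 1 row of the table whose identifier points to an unplaced scaffold. The RefSeq gene table (assembly GRCm38.p6) likewise lists Pisd-ps3 on no chromosome. The related pseudogenes Pisd-ps1 and Pisd-ps2 have 0 rows under those symbols and were not analysed here.

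The 20 mice were inbred C57BL/6NCr males aged 4 to 5 months, 5 from dams kept during pregnancy at each of 10, 18, 23 and 30 °C. Per the labels' protocols, dams were acclimated for 3 weeks to 30 °C or for 2 weeks to 18 or 10 °C before mating, and sires for 3 days, while breeding pairs at 23 °C, the usual animal house temperature, gave the control group. Every dam moved with its litter to 23 °C on the day of birth, and all offspring were then kept at 23 °C on standard chow with free access to water, so the groups differ by the temperature of the pregnancy and, with it, by the exposure of dams and sires before mating. Litters are not named in the labels, so p-values measure the spread between these animals, some of which may be littermates. The groups are called below by the maternal temperature and the animals by the number in their label.

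Pisd encodes phosphatidylserine decarboxylase, an enzyme of the inner mitochondrial membrane that turns phosphatidylserine (PS) into phosphatidylethanolamine (PE). The other main source of PE is the Kennedy pathway of the endoplasmic reticulum, which builds it from ethanolamine, and in liver part of the PE is methylated to phosphatidylcholine (PC). A pseudogene is a gene copy that has lost the ability to make the parent's protein; a transcribed one still gives RNA. Microarray probes of a copy can share sequence with the parent and with other copies, and which of these RNAs the probes of either row bind was not tested.

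All hepatocyte markers examined, 6 of 6, lay above the negative control rows, meaning a mean over the 20 arrays above 4.75, the highest mean of those rows on any array, and their summed signal varied between log2 22.03 and 22.16 over the 20 arrays. For the adipocyte and the pancreas markers 0 of 3 were above those controls, and 5 of 5 Kupffer cell markers were. Of the endothelial markers 4 of 4, of the stellate cell markers 3 of 4, and of the cholangiocyte and of the lymphocyte markers 1 of 4 each were. Some of these were still dim, since 95% of the single negative control rows had a mean under 7.58. The dimmest Kupffer cell and endothelial markers, at 5.73 and 6.76, lay under that level. So did the cholangiocyte and lymphocyte markers that passed, at 7.55 and 6.62. Summed Kupffer cell signal reached log2 10.72 to 11.36 in 10 °C, 10.41 to 11.59 in 18 °C, 9.90 to 11.01 in 23 °C and 10.08 to 11.39 in 30 °C livers, with overlap between all groups, and its part in the results below was not tested. Probes that measure background were somewhat brighter in 10 °C (log2 3.71 ± 0.02, SD, n = 5) and 18 °C (3.71 ± 0.04) than in 23 °C (3.65 ± 0.02) and 30 °C arrays (3.66 ± 0.06). The lowest 10 °C array, at 3.682, was above the highest 23 °C array, at 3.679. The level of these background probes and maternal temperature therefore cannot be fully told apart between 10 and 23 °C, also where it is used as a covariate below. The negative control rows were in the other order, with a mean of 4.53 ± 0.03 (SD) in 10 °C and 4.49 ± 0.07 in 18 °C arrays. Their mean was 4.63 ± 0.09 in 23 °C and 4.59 ± 0.06 in 30 °C arrays, and it was not used as a covariate. In bulk liver RNA, fewer cells of a type and less RNA per cell cannot be told apart.

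Pisd-ps3 was low in the livers of 10 °C offspring and at a higher level in each of the other groups. In 10 °C animals 2, 4, 5, 6 and 8 the log2 expression of Pisd-ps3 was 8.28, 7.32, 8.68, 8.22 and 7.65. In 18 °C animals 1, 3, 4, 5 and 7 it was 10.05, 9.50, 9.54, 9.83 and 9.98. In 23 °C animals 1, 2, 15, 17 and 23 it was 10.87, 11.17, 10.34, 10.10 and 8.64. Animal 23 thus lay far below the other 4 controls and inside the range of the 10 °C group. In 30 °C animals 4, 5, 6, 7 and 8 the values were 10.39, 10.69, 9.60, 10.85 and 9.68. Of the 15 arrays from warmer dams, 14 were above the highest 10 °C array, and 23 °C animal 23 was the exception.

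**Figure D1:**
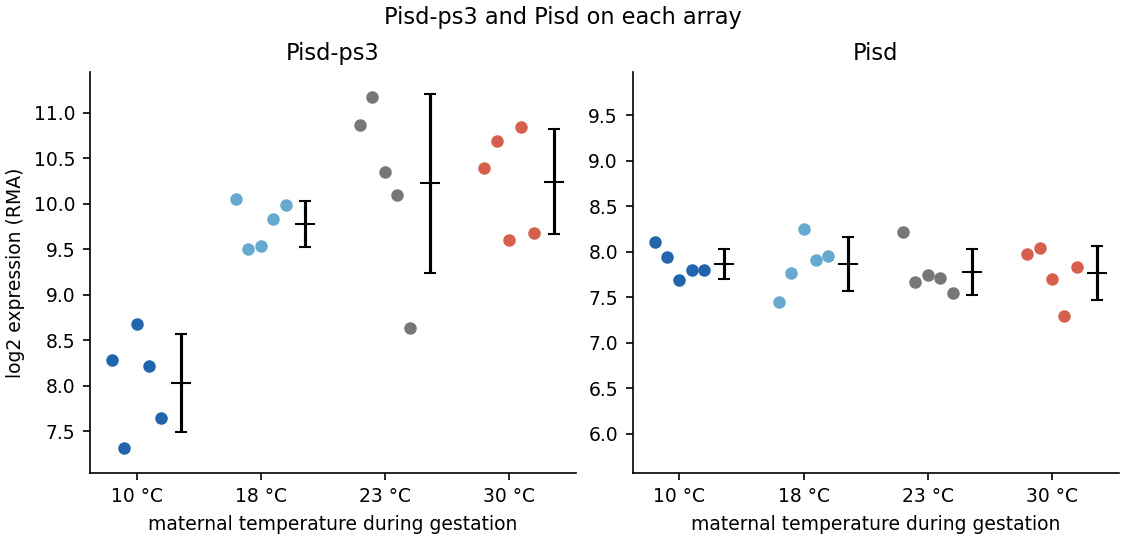
Log2 expression of Pisd-ps3 (left) and Pisd (right) on each of 20 arrays by maternal temperature. Points are single mice, bars the group mean with its SD (n = 5), and both vertical axes span the same number of log2 units. Pisd-ps3 lies between 7.32 and 8.68 in 10 °C offspring and above that on 14 of the other 15 arrays, while the Pisd values of the 4 groups overlap.

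Ordered by group mean, Pisd-ps3 stood at 8.03 ± 0.54 in 10 °C (SD, n = 5), 9.78 ± 0.25 in 18 °C, 10.22 ± 0.98 in 23 °C and 10.24 ± 0.57 in 30 °C livers. The 23 °C and 30 °C groups were within their spread of each other, with a log2 difference of 0.02 ± 0.36 (limma SE, n = 5 per group). The 18 °C group lay below them by less than the larger spread of the warmer groups, at -0.44 ± 0.36 against 23 °C and -0.46 ± 0.36 against 30 °C. The step from 18 to 10 °C was the largest between neighbouring groups, -1.75 ± 0.36, which is a 3.36-fold lower geometric mean. Against the 30 °C group the 10 °C group differed by -2.21 ± 0.36, or 4.64-fold.

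The ranges of Pisd-ps3 did not overlap between 10 and 18 °C, nor between 10 and 30 °C, and overlapped in the other 4 pairs of groups. Over all clusters, the ranges were separate in 1.42% between 10 and 18 °C, in 0.982% between 10 and 30 °C and in 2.45% between 10 and 23 °C. Among the warmer groups these shares were 1.81% between 18 and 23 °C, 1.41% between 18 and 30 °C and 0.752% between 23 and 30 °C. These shares are printed as background, since the same contrasts chose the gene. By the size of the log2 difference, Pisd-ps3 ranked 2 of 22206 clusters between 10 and 30 °C, 11 between 10 and 18 °C and 9 between 10 and 23 °C. It ranked 1547 between 18 and 23 °C and 20360 between 30 and 23 °C. Between 10 and 23 °C, 0.00901% of all clusters passed limma's adjusted p under 0.05, which is given as the background of that contrast and not as a test of the genes chosen from it. The number of clusters that passed was 2, but 22 without 23 °C animal 23, 1 without 18 °C animal 1 and 0 without any other single array.

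A straight line on maternal temperature gave Pisd-ps3 a slope of 1.11 ± 0.20 log2 units per 10 °C (SE, 20 arrays), and by the size of its slope Pisd-ps3 ranked 2 of 22206. The group means departed from that line by -0.40 at 10 °C, 0.46 at 18 °C, 0.35 at 23 °C and -0.41 at 30 °C. The means thus stood apart between 10 and 18 °C and nearly level between 23 and 30 °C. Leaving out single arrays kept the slope between 0.99 and 1.22. Without 23 °C animal 23 the difference between 10 and 23 °C was -2.59 in place of -2.19, and that between 18 and 23 °C was -0.84 in place of -0.44. With the background control level of each array as a covariate the differences of the 10 °C group were -2.00 against 23 °C, -1.75 against 18 °C and -2.06 against 30 °C.

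The levels of Pisd overlapped between all groups. In the same order of animals, the log2 expression of Pisd was 8.11, 7.94, 7.69, 7.80 and 7.80 in 10 °C offspring. It was 7.44, 7.77, 8.25, 7.91 and 7.95 in 18 °C offspring. In 23 °C offspring it was 8.21, 7.67, 7.74, 7.71 and 7.55, where animal 1 was high and the other 4 close together. In 30 °C offspring it was 7.97, 8.04, 7.70, 7.29 and 7.83. Of the 15 arrays from warmer dams, 2 were above and 4 below the range of the 10 °C group.

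Group means of Pisd were 7.87 ± 0.16 in 10 °C (SD, n = 5), 7.86 ± 0.29 in 18 °C, 7.78 ± 0.26 in 23 °C and 7.77 ± 0.30 in 30 °C livers, so that no neighbours in this order differed beyond their spread. Of all 5222 negative control rows, 95% had a mean under 7.58, so that Pisd in all groups and Pisd-ps3 in the 10 °C group lay near the upper end of those rows. Below that level were Pisd-ps3 in 10 °C animal 4 and Pisd in 18 °C animal 1, 23 °C animal 23 and 30 °C animal 7. Between 10 and 23 °C Pisd differed by 0.09 ± 0.17 (limma SE), with a 95% interval of -0.26 to 0.43, and between 10 and 30 °C by 0.10 ± 0.17 (-0.25 to 0.44). Its slope was -0.06 ± 0.08 per 10 °C (-0.22 to 0.10). The intervals give the differences of Pisd that remain compatible with these arrays.

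**Figure D2:**
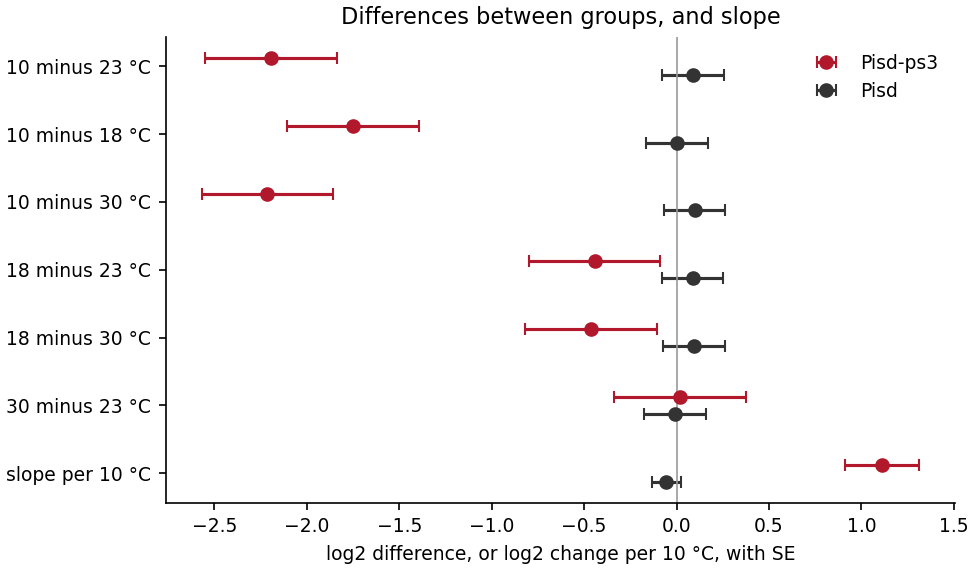
Log2 differences between maternal temperature groups, first minus second, and the log2 change per 10 °C, for Pisd-ps3 (red) and Pisd (dark grey). Bars are limma standard errors from 20 arrays, 5 per group. The 3 differences of the 10 °C group run from -2.21 to -1.75 for Pisd-ps3 and from 0.00 to 0.10 for Pisd.

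Set side by side as changes, Pisd-ps3 and Pisd parted by -2.28 ± 0.43 between 10 and 23 °C (Pisd-ps3 change minus Pisd change, SE), by -2.31 ± 0.43 between 10 and 30 °C and by -1.75 ± 0.43 between 10 and 18 °C. Among the 3 warmer groups the changes parted by -0.56 to -0.03. Between-group differences made up 71.4% of the variance of Pisd-ps3 over the arrays and 3.89% of that of Pisd, where the median cluster had 16.5%. A high share was built into the choice of Pisd-ps3 by its group differences, so these shares are a description only. Pooled over the groups, the within-group SD of Pisd-ps3, 0.64, exceeded that of 98.3% of clusters. The pooled SD of Pisd, 0.26, exceeded that of 33.8%, and the median cluster had 0.29. The spread of Pisd-ps3 was uneven, with an SD of 0.98 in the 23 °C group, which holds the low animal 23. In the 18 °C group its SD was 0.25, below the 0.29 of Pisd.

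Within the groups, which the choice of the genes did not use, no relation of pseudogene and parent was detectable. Pisd lay near the upper end of the negative control rows, which limits what this correlation can show. Its pooled within-group SD, 0.26, was a little below the 0.29 of the median cluster. Deviations from the group means of Pisd-ps3 and Pisd correlated at Pearson's r = 0.0641 (n = 20 arrays, permutation p = 0.802, two-sided, arrays permuted within groups). Spearman's rho was -0.0150 (permutation p = 0.956). Without 10 °C animals 4 and 8, the arrays farthest from the median of Pisd-ps3 over all 20 arrays, r was 0.0799 (permutation p = 0.767). The largest deviation from a group mean was that of 23 °C animal 23, at -1.58. Leaving out each array in turn gave r between -0.151, without 23 °C animal 23, and 0.242, without 30 °C animal 7. This was the 1 relation tested between the members, so its adjusted p is the same. Of all other clusters, 79.4% had a within-group correlation with Pisd-ps3 of larger size than Pisd had.

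**Figure D3:**
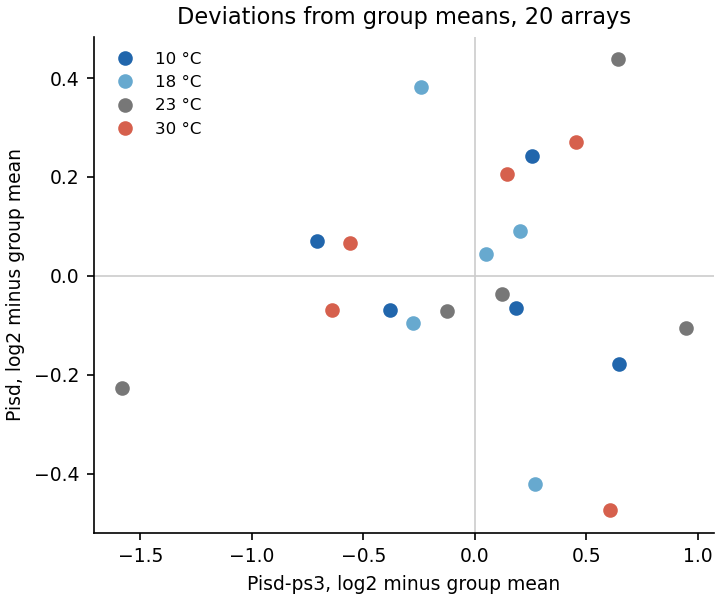
Deviation of each array from its group mean in log2 units, Pisd-ps3 on the horizontal and Pisd on the vertical axis, coloured by maternal temperature. The 20 points show no common direction (r = 0.0641), and the point farthest left is 23 °C animal 23.

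For the pathway of Pisd, 5 lists with 49 genes in all were drawn up for the making, transfer and use of mitochondrial phospholipids, of which 47 genes, Pisd included, had a row. Etnk2 and Phospho1 were not analysed here. Of the 46 genes other than Pisd, 0 passed limma's adjusted p under 0.05 in any of the 6 pairwise comparisons or for the slope, nor did any under a robust variance model that follows intensity. The share of all clusters that passed was 0.00901% between 10 and 23 °C and 0% in the other comparisons and for the slope. At an unadjusted p under 0.05 stood 8 of 46 genes between 10 and 23 °C, 5 higher and 3 lower in the 10 °C group, which is 17.4% where 11.6% of all clusters did. With the background control level, which itself separated these groups, as a covariate that count was 0, and it moved when single arrays were left out. It was 3 when control animal 2 was left out, 4 when control animal 17 was, and 5 when control animal 15 or either of animals 2 and 8 of the 10 °C group was. The median difference of the 46 genes between 10 and 23 °C was 0.00, as it was over all clusters.

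The other comparisons had fewer such genes. Unadjusted, 4 of 46 stood under 0.05 between 10 and 18 °C (8.70% against 8.10% of all clusters) and 2 between 10 and 30 °C (4.35% against 6.76%). Between 18 and 23 °C there were 5 (10.9% against 9.25%), and between 18 and 30 °C there were 6 (13.0% against 8.21%). Between 30 and 23 °C 1 gene did (2.17% against 4.84%), and for the slope 3 genes (6.52% against 8.15%). Single arrays moved each of these counts. It was 7 between 10 and 18 °C without 10 °C animal 8. Between 10 and 30 °C it was 4 without 30 °C animal 4 and 1 without any of 30 °C animals 5, 6 and 7. Between 18 and 23 °C it was 3 without 18 °C animal 5 or any of 23 °C animals 1, 17 and 23, and between 18 and 30 °C it was 3 without 18 °C animal 4. Between 30 and 23 °C it was 2 without 23 °C animal 2 or 23 and 0 when control animal 15 or either of 30 °C animals 4 and 7 was left out, and for the slope 5 without 10 °C animal 5 or 30 °C animal 4. The comparisons share groups, so their counts are not independent of each other.

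Of the 13 synthesis genes, those that supply PS to Pisd or make and use PE and PC without it, 0 passed in any comparison. Ptdss1 and Ptdss2, the PS synthases, differed between 10 and 23 °C by 0.06 ± 0.17 and 0.19 ± 0.17 (limma SE, n = 5 per group, adjusted p = 0.926 and 0.707). In the ethanolamine branch, Etnk1, the kinase of the first step, averaged 8.99 ± 0.27 in 10 °C (SD) against 8.72 ± 0.16, 8.66 ± 0.12 and 8.64 ± 0.30 in 18, 23 and 30 °C livers. Its 5 values in 10 °C offspring were 8.80, 8.87, 9.21, 9.36 and 8.73, and those in 23 °C offspring 8.75, 8.60, 8.51, 8.65 and 8.80, so the ranges overlapped. The difference of Etnk1 was 0.33 ± 0.15 (adjusted p = 0.404) and its slope -0.18 ± 0.07 per 10 °C (adjusted p = 0.560).

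Pcyt2, which catalyses the slow, controlling step of this branch, differed by -0.05 ± 0.15 between 10 and 23 °C (limma adjusted p = 0.926). Selenoi and Cept1, which join the head group to diacylglycerol, differed by -0.15 ± 0.22 (0.840) and 0.26 ± 0.15 (0.488). Etnppl, which breaks down phosphoethanolamine, differed by -0.19 ± 0.26 (0.830). Pemt, which methylates PE to PC in liver, differed by -0.21 ± 0.14 (0.578) in the brightest of its 5 rows, and the other 4 rows gave -0.26 to -0.18.

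In the choline branch, Chkb and Pcyt1a differed between 10 and 23 °C by 0.22 ± 0.17 and 0.14 ± 0.16, and Chpt1, which makes PC, by -0.21 ± 0.18 (limma adjusted p = 0.666, 0.782 and 0.682). Chka, a choline kinase, had the largest standard error at -0.43 ± 0.73 (adjusted p = 0.863). In 10 °C offspring Chka was 6.54, 5.17, 7.27, 6.18 and 4.21, and in 23 °C offspring 6.23, 3.30, 6.34, 8.97 and 6.69. Leaving out control animal 2 or 17 moved its difference to -1.18 or 0.23. Leaving out 10 °C animals 4, 5 or 8, 1 at a time, gave -0.26, -0.78 and -0.02, and the background covariate gave 0.11, so the direction is not settled. Pcyt1b, at 0.12 ± 0.18, had group means of 2.48 to 2.64, below the negative control rows, whose mean per array was 4.40 to 4.75.

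Transfer of lipids to the inner membrane, where Pisd acts, involves Prelid3b, which carries PS together with Triap1, and Prelid1, which carries phosphatidic acid. Prelid3b averaged 9.84 ± 0.25 in 10 °C (SD) against 10.27 ± 0.38, 10.26 ± 0.50 and 10.18 ± 0.21 in 18, 23 and 30 °C livers, and its difference of -0.42 ± 0.21 between 10 and 23 °C did not pass (limma adjusted p = 0.446). Triap1 differed by 0.15 ± 0.19 (0.819) and Prelid1 by 0.05 ± 0.13 (0.913). Prelid2 and Prelid3a, at 0.01 ± 0.21 and -0.28 ± 0.16, had group means of 3.15 to 3.36 and 4.11 to 4.40, not above the negative controls.

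Of the 8 cardiolipin genes, 3 stood at an unadjusted p under 0.05 between 10 and 23 °C, all higher in the 10 °C group, where 11.6% of all clusters did, and 0 passed after adjustment. With the background control level as a covariate 0 of the 8 stood under 0.05. The median difference of the 8 genes was 0.08, against 0.00 over all clusters. Crls1, cardiolipin synthase, had the smallest p for the slope of its list, at -0.23 ± 0.08 per 10 °C (SE, limma adjusted p = 0.500). Crls1 was 12.37, 12.27, 12.23, 12.81 and 11.78 in 10 °C offspring and 11.71, 11.72, 11.62, 12.25 and 11.93 in 23 °C offspring, with overlap. The 3 genes were Tamm41, which makes the precursor CDP-diacylglycerol, Taz, which remodels cardiolipin, and Crls1, with differences of 0.58 ± 0.25, 0.45 ± 0.15 and 0.44 ± 0.17. The smallest adjusted p among all pathway genes between 10 and 23 °C was that of Taz, 0.256. Over the 20 arrays Taz and Tamm41 averaged 6.90 and 6.31, under the 7.58 below which 95% of negative control rows lay.

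Among the 9 genes of contact sites between endoplasmic reticulum and mitochondria, Rmdn3, a mitochondrial tether, had the smallest p for the slope (-0.27 ± 0.12 per 10 °C, limma adjusted p = 0.582). Its mean was 8.53 ± 0.38 in 10 °C (SD), 8.58 ± 0.37 in 18 °C, 7.92 ± 0.22 in 23 °C and 8.11 ± 0.56 in 30 °C livers, so both cold groups lay above the control mean. Of the 11 genes of the inner membrane and of PE use, 8 were below 0 between 10 and 23 °C, with a median of -0.19 against 0.00 over all clusters. At an unadjusted p under 0.05 stood 3 of these, where 11.6% of all clusters did, and 0 with the background covariate. They were Yme1l1, an inner membrane protease (-0.33 ± 0.15), Phb, a prohibitin (-0.27 ± 0.12), and Stoml2, a cardiolipin-binding scaffold protein (-0.27 ± 0.13). Gabarapl2, an autophagy protein that is attached to PE, had the smallest slope p of its list (0.15 ± 0.08, adjusted p = 0.627).

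**Figure D4:**
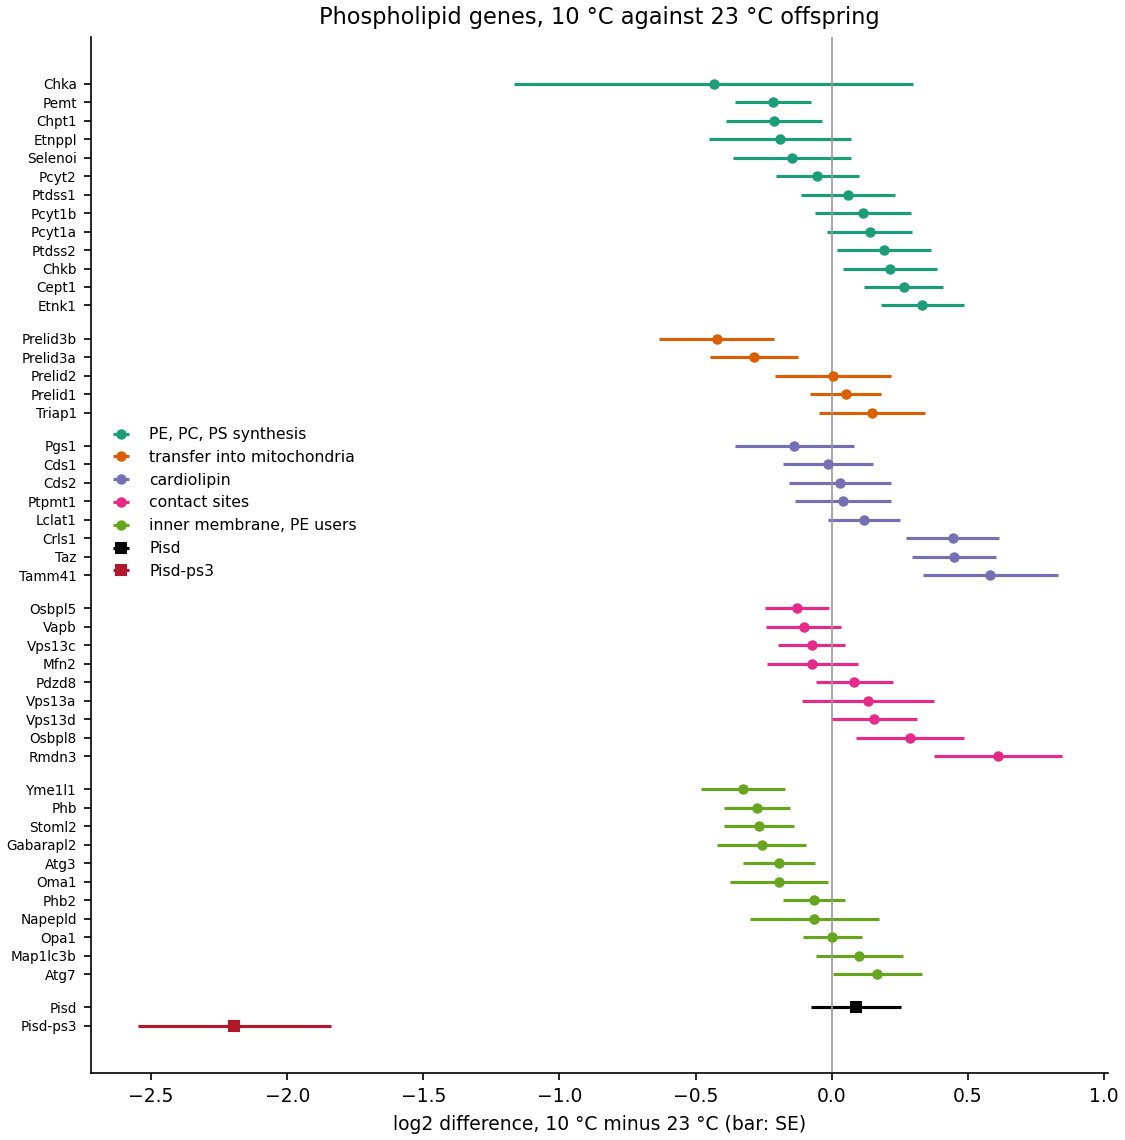
Log2 difference between 10 °C and 23 °C offspring for 46 phospholipid genes in 5 lists, with Pisd and Pisd-ps3 below them. Points are differences from limma and bars their standard errors (n = 5 per group). The 46 genes lie between -0.43 and 0.61, none passing after adjustment, and Pisd-ps3 at -2.19.

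Genes beside Pisd were taken from the 10 positions on each side in RefSeq order, of which 7 of 20 had a row. For Pisd-ps3 no neighbours were used, because the gene table joins several unplaced scaffolds under 1 name. Between 10 and 23 °C 0 of 7 neighbours of Pisd passed, adjusted or unadjusted, where 11.6% of all clusters had an unadjusted p under 0.05. The nearest measured on one side, Yes1 and Ppp1cb, differed by -0.11 ± 0.16 and -0.01 ± 0.14 (limma adjusted p = 0.844 and 0.982). On the other side, Prr14l and Depdc5 differed by 0.23 ± 0.16 and -0.07 ± 0.18 (0.621 and 0.913). Between 10 and 18 °C 1 of the 7 stood at an unadjusted p under 0.05, where 8.10% of all clusters did, and likewise 1 between 18 and 23 °C (9.25%) and 1 between 18 and 30 °C (8.21%). In each case it was Prr14l, which had group means of 3.56 to 4.27, under the negative controls, and was lowest in 18 °C livers. Its differences were 0.71 ± 0.16, -0.48 ± 0.16 and -0.53 ± 0.16 (limma adjusted p = 0.281, 0.387 and 0.403). For the slope 1 of the 7 stood there, where 8.15% of all clusters did. This was Plb1, at 0.18 ± 0.08 per 10 °C (adjusted p = 0.591), with group means of 2.54 to 2.87, also under the negative controls. Between 10 and 30 °C and between 30 and 23 °C 0 of the 7 did.

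The transcripts whose pattern over the 20 arrays was most like that of Pisd-ps3 were, in order, the unnamed cluster TC0900003073.mm.2 (Pearson's r = 0.814), Clec2d (0.791), Rabepk (0.761), Zfp966 (0.758) and Gm14393 (0.757). These were picked as the highest of all clusters, so r is a description without a p, and arrays of 1 group share their maternal temperature. With group means removed, r was 0.413, 0.402, 0.582, 0.499 and 0.462. Leaving out each array in turn kept the 5 values over 20 arrays between 0.707 and 0.855.

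TC0900003073.mm.2 was 5.28, 4.91, 5.29, 5.40 and 5.59 in 10 °C offspring and 5.92, 6.33, 6.11, 5.99 and 5.99 in 23 °C offspring. Clec2d, a C-type lectin that natural killer cell receptors bind, was 13.70, 13.55, 13.34, 12.64 and 12.71 in 10 °C offspring. In 23 °C offspring Clec2d was 14.33, 14.33, 14.46, 14.36 and 13.34, with animal 23 lowest, as it was for Pisd-ps3. Zfp966, a zinc finger protein, was 13.29, 13.40, 13.48, 13.75 and 13.01 in 10 °C against 14.88, 14.42, 14.58, 14.24 and 13.38 in 23 °C offspring, with animal 23 again the lowest control. Rabepk, a Rab effector, averaged 6.07 ± 0.16 in 10 °C and 6.59 ± 0.25 in 23 °C offspring (SD, n = 5), and Gm14393 averaged 10.11 ± 0.18 and 11.12 ± 0.51. TC0900003073.mm.2 and Rabepk lay under 7.58, the level below which 95% of negative control rows fell.

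The opposite pattern was closest in Ndst2, a heparan sulfate sulfotransferase (r = -0.811), Btg4 (-0.798) and the unnamed TC0200004589.mm.2 (-0.790). Ndst2 averaged 7.96 ± 0.14 in 10 °C (SD, n = 5) and 7.49 to 7.53 in the other groups. Btg4 had a mean of 3.65, not above the negative controls, so its values carry little measured expression.

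**Figure D5:**
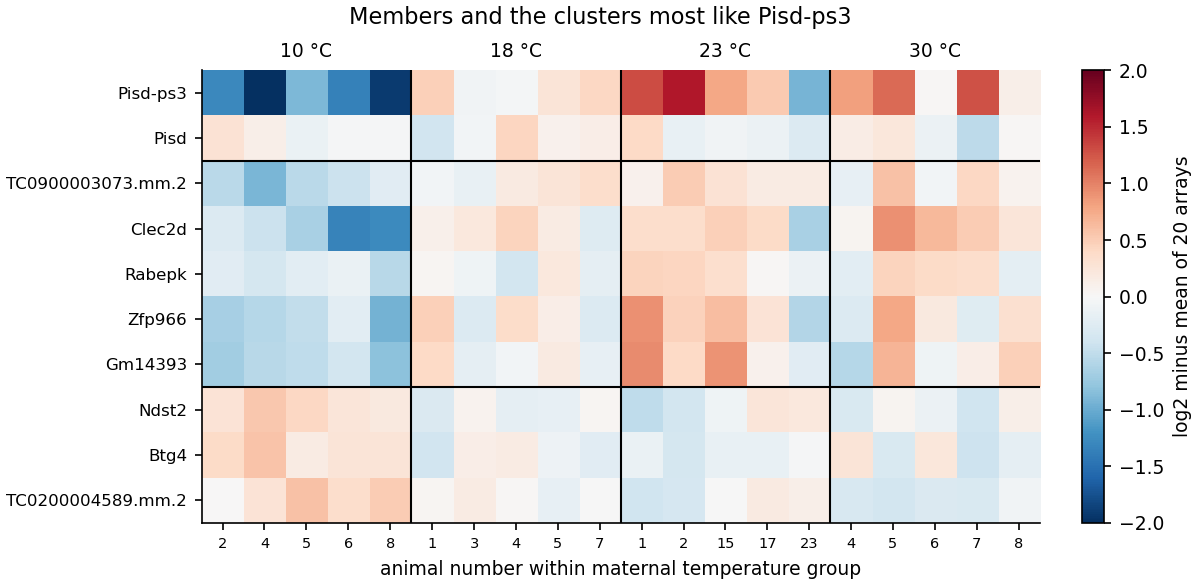
Log2 expression minus the mean of 20 arrays for Pisd-ps3, Pisd, the 5 clusters most like Pisd-ps3 and the 3 most opposite to it. Columns are animals within maternal temperature groups, red is above and blue below the mean, and colours saturate at 2 log2 units. The 10 °C columns are below the mean for Pisd-ps3 and the 5 clusters like it, and palest for Rabepk, whose values lie about as near their mean as those of Pisd. The row of Pisd is pale throughout, with 10 °C values on both sides of its mean.

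By deviations from group means alone, other transcripts were closest to Pisd-ps3: Gtf2e2, a subunit of general transcription factor TFIIE (r = 0.788), Adarb1, an RNA-editing enzyme (0.774), Rnf168, a ubiquitin ligase of the DNA damage response (0.773), Gpsm1 (0.771) and Shisa7 (0.764). Gpsm1 and Shisa7 were not above the negative controls. Without single arrays the r of Gtf2e2 went down to 0.538 and that of Rnf168 to 0.502, while that of Adarb1 stayed at 0.664 or above. The 3 lowest, Cldn9 (-0.779), Saxo1 (-0.776) and Olfr889 (-0.760), had means of 2.28 to 2.51 and were not above the negative controls. None of these 8 was among the 8 named over the 20 arrays.

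Pisd was most like Emsy, a chromatin-associated protein (r = 0.769 over 20 arrays, 0.803 with group means removed), AU022252 (0.757 and 0.755) and Nlk, a serine/threonine kinase (0.756 and 0.778). By deviations from group means Emsy and Nlk again led, followed by Enkd1 (0.770), whose mean of 2.61 was not above the negative controls. Emsy averaged 7.86 ± 0.11 in 10 °C and 7.80 ± 0.26 in 23 °C livers (SD, n = 5), so its groups, like those of Pisd, lay within their spread.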

How the data were processed

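Liver RNA of 20 mice was measured on Affymetrix arrays, 1 per mouse. The deposited table holds log2 expression values made by the authors; per the submitters' processing notes RMA and the Transcriptome Analysis Console were used, with versions, settings and genome build not given in the sources used here. RMA makes array distributions alike and compresses differences of dim rows. Of 28846 rows, 6640 were control rows and 22206 transcript clusters, 19572 of which carry 1 symbol in the platform annotation, 0 several and 2634 none. All 19572 gene identifiers matched the RefSeq table. No 2 arrays were identical, and the number of arrays limits precision.

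All clusters were fitted with limma 3.58.1 (R 4.3.3; lmFit, eBayes, 1 mean per group over 20 arrays, a second fit for the slope per 10 °C), two-sided, with Benjamini-Hochberg adjustment over all clusters within each test and a threshold of 0.05. The fits were tested on simulated data. Correlations used 100000 permutations within groups (numpy 2.4.6). The brightest row stood for a gene with several, and rows with the same values counted once among the most alike.

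Members and lists were chosen with earlier results of these data known. Named were all genes of PE, PC and PS synthesis and of transfer, the smallest slope p of each other list, the 2 nearest measured neighbours per side, and the transcripts most like the members (5 highest and 3 lowest for Pisd-ps3, 3 highest for Pisd), beside single genes of small counts (Tamm41, Taz, Yme1l1, Phb, Stoml2), chosen after their values were seen. Alternatives were other scalings, array weights, a covariate, other variance models, a filter on dim rows, the animal number as a block and leaving out each array.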

Additional observations from a re-analysis of the deposited data

Results flagged for a closer look

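Within groups of 5, single animals stood apart from the others by Dixon's criterion (the gap to the nearest animal over the range of the group) in 7 of 108 groups of 27 genes, where chance gives about 1 in 20. For Pisd, 23 °C animal 1 was at log2 8.21 against 7.55 to 7.74 in the other 4. For Chkb, 18 °C animal 1 was at 9.39 against 8.53 to 8.75. For Pcyt1b, which is not above the negative controls, 30 °C animal 4 was at 3.44 against 2.34 to 2.49. Prelid3b was at 9.60 in 18 °C animal 7 against 10.29 to 10.50. In 18 °C animal 3, Triap1 was at 5.83 against 5.21 to 5.34 and Ppp1cb at 11.29 against 11.75 to 11.87. Depdc5 was at 7.80 in 10 °C animal 2 against 8.25 to 8.43. Pisd-ps3 was not among them: its low value in 23 °C animal 23 did not reach the criterion.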

How the results depend on the processing

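Of 362 alternative values for the members' differences and slopes, 359 moved by less than 1 within-group SD. Part of these could not move, since leaving out an array of a group outside a comparison does not change that difference. Slopes per 10 °C were set against the same SD, although they are in another unit, so the count overstates how firm the values are. Leaving out 1 array at a time, Pisd-ps3 differed by -2.59 to -1.96 between 10 and 23 °C, -1.91 to -1.57 between 10 and 18 °C and -2.37 to -2.04 between 10 and 30 °C. The 3 that moved came from the animal number as a replicate block: Pisd-ps3 between 18 and 23 °C at -1.09, Pisd between 10 and 23 °C at -0.21 and Pisd between 30 and 23 °C at -0.27; the cause was not tested. Of 11 same-numbered pairs, 1 had deviations correlated above 0.1 (-0.151 to 0.110). The labels do not say what the numbers mark, and whether same-numbered animals share anything was not tested. The count of pathway genes passing stayed 0 in all 188 alternative fits and comparisons, and the correlation of Pisd-ps3 with Pisd kept its side of the threshold in 24 of 24. Unadjusted pathway counts between 10 and 23 °C ran from 0 (background covariate; 2 with the block) to 9. With the block they were 8 between 10 and 18 °C, 0 between 10 and 30 °C, 1 between 18 and 23 °C, 0 between 30 and 23 °C and 1 for the slope. All clusters called between 10 and 23 °C numbered 2, but 22 without 23 °C animal 23, 1 without 18 °C animal 1 and 0 without any other array, with the background covariate, the block, the intensity trend, the dim-row filter or only these 2 groups; elsewhere the count was 0 to 3. Of 1319 alternative values for 25 named genes, none passed, and 63 changed sign. Part of these could not change sign, since leaving out an 18 or 30 °C array does not alter a difference between 10 and 23 °C. Low signal limits Pcyt1b, Prelid2, Prelid3a and Prr14l. The means of Ptdss2, Taz, Tamm41, Chka, Triap1, Rabepk, TC0900003073.mm.2 and TC0200004589.mm.2 were also under 7.58, below which 95% of negative control rows lay.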
